A study of Begonia x semperflorens-cultorum with 3 samples.

Results

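In 289 assembled begonia genes, the transcripts had a different mean length in leaves grown at low temperature than in control leaves. Their read counts, normalised for library size, stayed within 2-fold. These genes come from the 74779 genes of the assembly shared by the low-temperature and the control library. The members were chosen by the measured values of both libraries, in 3 steps. To begin with, 9590 genes had 2 or more isoforms and at least 50 counts in each library. Next, 7863 of these had a normalised count fold above 0.5 and below 2. Last, 289 of these (3.68%) had a length ratio of at least 1.2 in either direction. That 3.68% is the share of the 7863 genes that the rule itself selects, and nothing is read from it.

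The leaves were those of Begonia x semperflorens-cultorum, a hybrid bedding begonia, of the ecotype labelled Super Olympia, and the RNA sequenced was selected for its poly-A tail. Plants for the low-temperature library (LT) were grown at 15/5 °C and those for the control library (CK) at 25/15 °C, in both cases under 300 μmol of light (per m2 and s). A library of high light (HL; 25/15 °C, 500 in the same unit) was not analysed here. Each library is a mixture of 4 parallel samples and stands alone for its condition, so the spread between plants was not measured, no test was made, and each difference is one between 2 libraries. Growth temperature and anything else that differed between these libraries cannot be told apart.

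A plant gene can give transcripts of several lengths, by splicing its introns in different ways, by keeping an intron, or by starting or ending transcription at different places. Low temperature is known to alter splicing in plants, with many transcripts of Arabidopsis as examples. In an assembly made from the reads themselves, the isoforms listed for a gene can also be alleles, close gene copies, unspliced precursors or incomplete fragments. The length given here is taken to be the mean over a gene's isoforms, weighted by how many transcripts each isoform contributes. Such a mean moves only when the makeup of isoforms moves. The deposited values were compared with this weighting. For the 7796 multi-isoform genes with a TPM (a length-corrected level) of at least 10 in LT, count divided by effective length and TPM departed from the constant of single-isoform genes by at most 0.0838%, and for the 7423 such genes in CK by at most 0.138%. The same constant would also arise if TPM had been made from count and effective length, so this comparison cannot settle the weighting. All 58037 single-isoform genes had equal lengths in both libraries.

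The files pair no gene number with a name, a sequence or a position, so the roles of the members are not described, leaf marker genes could not be checked, and only 4 members are given by number. Per-isoform counts and isoform lengths were not used here. What can be read per gene is a lower limit: a mean length lies between its shortest and its longest isoform, so the isoforms of a gene must differ by at least as many bases as its LT and CK lengths do.

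Of the 289 members, 136 were longer in LT (1.73% of the 7863 genes) and 153 were longer in CK (1.95%). The length ratio, longer over shorter, had a median of 1.26 among those longer in LT (highest 1.70) and 1.29 among those longer in CK (highest 2.26). Over all 7863 genes the median ratio was 1.01, so most of these genes had nearly the same mean length in both libraries. In RNA of whole leaves, another mix of cell types and another use of isoforms within cells cannot be told apart, nor can fewer cells of a type and less RNA per cell. The length difference of the members ran from 88.9 to 3113 bases, with a median of 428.4 bases, against a median of 20.9 bases over the 7863 genes. It reached 500 bases in 113 members and 1000 bases in 19 members. Over the 7863 genes, members included, it did so in 144 (1.83%) and 20 (0.254%). Since the members were chosen by length ratio, most large differences fall among them by choice. Of the 19 members, 14 were longer in CK and 5 were longer in LT.

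**Figure D1:**
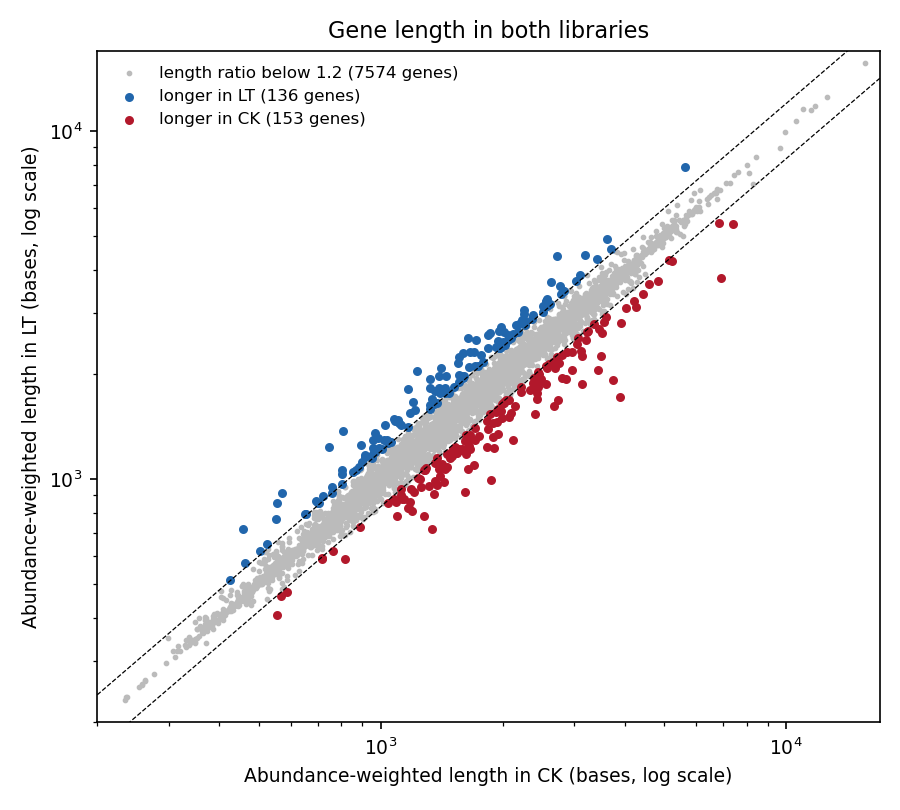
Each point is 1 of the 7863 genes within 2-fold in normalised count, with its abundance-weighted length in CK on the horizontal and in LT on the vertical axis (bases, both log scales); the dashed lines mark a ratio of 1.2. The 136 members longer in LT lie above the band and the 153 longer in CK lie below it.

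The greatest ratio belonged to c39328.graph_c0, a gene with 4 isoforms. Its transcripts averaged 1719 bases in LT and 3887 bases in CK, from 339 and 385 counts. The mean was thus 2167 bases shorter in the cold-grown leaves, a ratio of 2.26, and at least 1 pair of its isoforms must differ by that much. Its log2 count fold, LT over CK and normalised, was -0.39 (exact 95% counting interval -0.60 to -0.17).

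Second came c37850.graph_c0, with 3 isoforms and mean lengths of 1928 bases in LT and 3739 bases in CK. Its counts were 1055 in LT and 724 in CK, a log2 count fold of 0.34 (0.20 to 0.48). Here the reads were slightly more numerous in LT although the transcripts were shorter by a ratio of 1.94. Its FPKM, a level per effective length and library total, was 30.6 in LT and 11.5 in CK, so the level per length differed more than the count did.

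In the other direction, c39273.graph_c1 had the greatest ratio among members with at least 200 counts in both libraries. This gene of 3 isoforms had nearly the same normalised count in both, 3344 in LT and 3322 in CK, with a log2 count fold of 0.01 (-0.06 to 0.08). Its mean length was 4359 bases in LT and 2719 bases in CK, a difference of 1641 bases. Its read number thus differed by less than the counting error, whereas its FPKM was 44.6 in LT and 68.1 in CK. The next, c29247.graph_c0, lists 30 isoforms and averaged 2535 bases in LT and 1638 bases in CK, from 1028 and 1096 counts. Its log2 count fold was -0.30 (-0.42 to -0.17) and its log2 FPKM fold was -0.87.

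The next 3 members of each ranking listed 11 isoforms or more. Among those longer in CK, the third, the fourth and the fifth had 11, 99 and 122 isoforms. The gene with 99 isoforms showed the greatest difference in bases of all members, 3785 in LT and 6898 in CK, from 2479 and 1502 counts. The gene with 122 isoforms averaged 917.7 bases in LT and 1611 bases in CK, and that with 11 averaged 991.4 and 1875.5 bases. Among those longer in LT, the third, the fourth and the fifth had 25, 136 and 73 isoforms and ratios of 1.48, 1.47 and 1.45. Below the limit of 200 counts, 3 members had a larger ratio in this direction than c39273.graph_c1. Their ratios were 1.70, 1.67 and 1.66, from 173, 190 and 55 counts in LT and 91, 101 and 67 in CK.

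**Figure D2:**
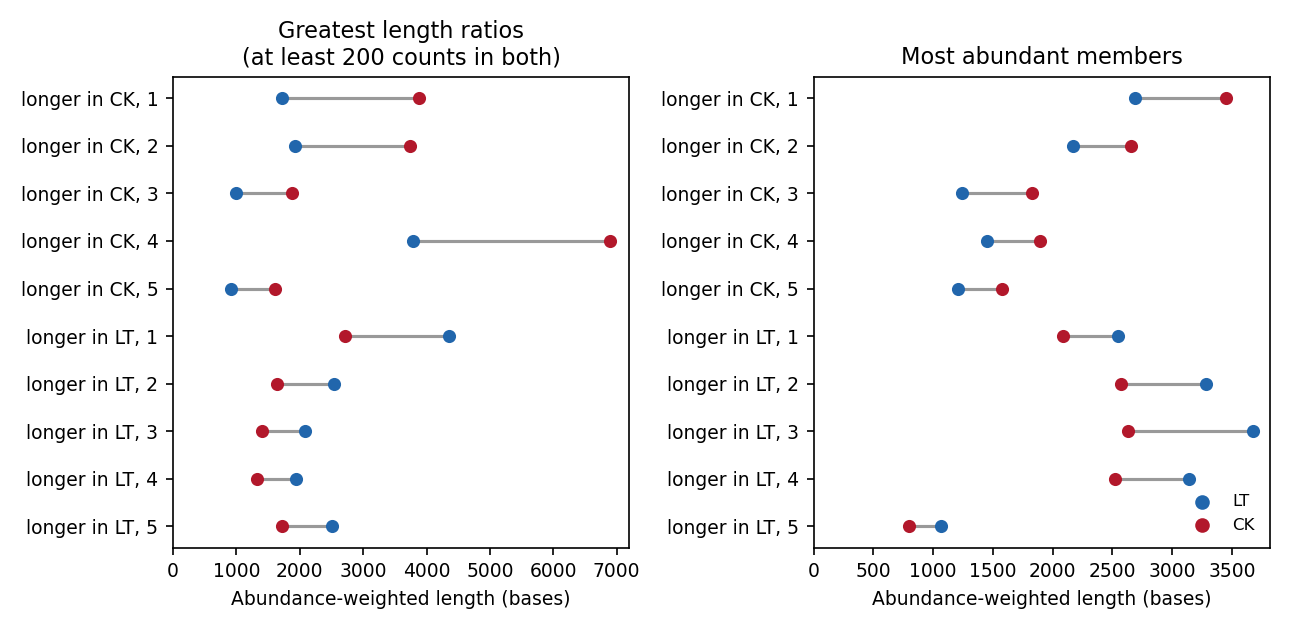
The abundance-weighted length in bases is plotted for LT (blue) and CK (red), with 1 line per gene, numbered by rank within each direction; left, the 5 greatest ratios in each direction among members with at least 200 counts in both libraries, and right, the 5 most abundant members in each direction by mean normalised count. The widest gap on the left is that of the gene with 99 isoforms, 3785 against 6898 bases, and on the right that of a gene at 3673 bases in LT and 2633 bases in CK.

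Length shifts were also present among abundant transcripts. The most abundant member had 8837 counts in LT and 8195 in CK, and its 6 isoforms averaged 2693 bases in LT and 3452 bases in CK. Its log2 count fold was -0.10 (-0.14 to -0.05), a small difference beside the length ratio of 1.28. The most abundant member longer in LT had 6444 counts in LT and 8941 in CK, with 2546 and 2090 bases. For this gene and the next one, which averaged 3284 bases in LT and 2573 bases in CK, the transcripts were longer in LT while the normalised counts were lower there, with log2 count folds of -0.68 and -0.92. The fifth most abundant member longer in CK had 1209 bases in LT and 1577 in CK, and its counts were higher in LT, with a log2 count fold of 0.73. Its FPKM was 277 in LT and 118.1 in CK. Together the members held 1.247% of all counts in LT (exact 95% binomial interval 1.242 to 1.252%) and 1.203% in CK (1.198 to 1.209%). Total counts were 18836786 in LT and 17223244 in CK, and all such intervals cover counting error only.

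The normalised count fold was held within 2-fold by the rule, but it was not always indistinguishable from equality. The 95% counting interval of the fold included an equal level for 95 of the 289 members (32.9%). It lay wholly inside 2-fold for 230 (79.6%). For the other 59 the interval reached 2-fold or beyond. The same shares were not computed over the 7863 genes. An interval is wider at lower counts. The median count was 300 in LT and 297 in CK for the members, against 466 and 409 over the 7863 genes. These shares are therefore not read as a trait of the members.

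Members near the limits differed little from the genes left out. The member nearest the length limit on the LT side, with 1650 and 1375 bases, had a ratio of 1.2003, and the first gene outside it had 617.4 bases in LT and 514.5 in CK. On the CK side the nearest member had 2549 bases in LT and 3058 in CK, against 1552 and 1863 for the first gene outside. The highest fold inside was 1.99, of a gene with 1318 and 573 counts, and the lowest was 0.503, while the nearest length-shifted genes outside had folds of 2.02 and 0.488. At the count limit, a member had 50 counts in LT and 53 in CK, and the first gene below it had 73 and 49.

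The number of isoforms was not used by the rule beyond the minimum of 2, and it differed between members and other genes. The members listed a median of 9 isoforms (quartiles 5 and 21, highest 422), against 4 over the 7863 genes (quartiles 2 and 10). Of the 2214 genes with 2 isoforms, 23 (1.04%) were members. The share was 2.35% with 3 or 4 isoforms, 4.55% with 5 to 9, 5.71% with 10 to 19, and 8.84% of the 905 genes with 20 or more. It was thus higher in each class with more isoforms than in the one before. The median length ratio of all genes moved in the same order, from 1.004 with 2 isoforms to 1.04 with 20 or more.

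Read depth was used by the rule only as a minimum. Among genes whose lower count was 50 to below 100, 6.90% were members, against 3.72% from 100 to below 300 and 2.62% from 300 to below 1000. Above that the share did not go on falling: it was 3.42% of the 1315 genes with 1000 to below 3000 counts and 3.97% of the 277 genes with 3000 or more. There were 56 members with at least 1000 counts in both libraries. The files give no error for a length, so how much of each shift counting noise in the assignment of reads to isoforms contributes was not tested.

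Isoform number and count were then combined. With 2 isoforms the share stayed between 0.747% and 1.27% in the 3 count classes, and the intervals of the classes overlapped. In the 3 classes between 2 and 20 isoforms the share was lower in both classes from 300 counts than in the class below. It was 3.61% below 300 counts with 3 or 4 isoforms (exact 95% binomial interval 2.47 to 5.09%), against 1.26% from 300 to below 1000 (0.580 to 2.39%). With 5 to 9 isoforms it was 6.77% (5.12 to 8.74%) and 2.28% (1.25 to 3.79%) in the same count classes, and with 10 to 19 it was 8.59% (6.02 to 11.8%) and 4.15% (2.48 to 6.48%). The intervals were apart for 3 or 4 and for 5 to 9 isoforms, and overlapped for 10 to 19. With 20 or more isoforms it was 10.3% below 300 counts (exact 95% binomial interval 6.62 to 15.0%), 7.54% from 300 to below 1000 (5.18 to 10.5%) and 9.63% from 1000 counts (6.39 to 13.8%). The order by isoform number was therefore also seen among genes with 1000 counts or more, where the share rose from 1.02% (0.279 to 2.60%) with 2 isoforms through 1.45%, 3.47% and 3.77% to 9.63%. The count of a gene is shared by its isoforms, so genes in the same count class have unequal reads per isoform. Whether the order by isoform number stands apart from reads per isoform was not tested. Genes are not independent replicates, and these intervals describe counting of genes only.

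**Figure D3:**
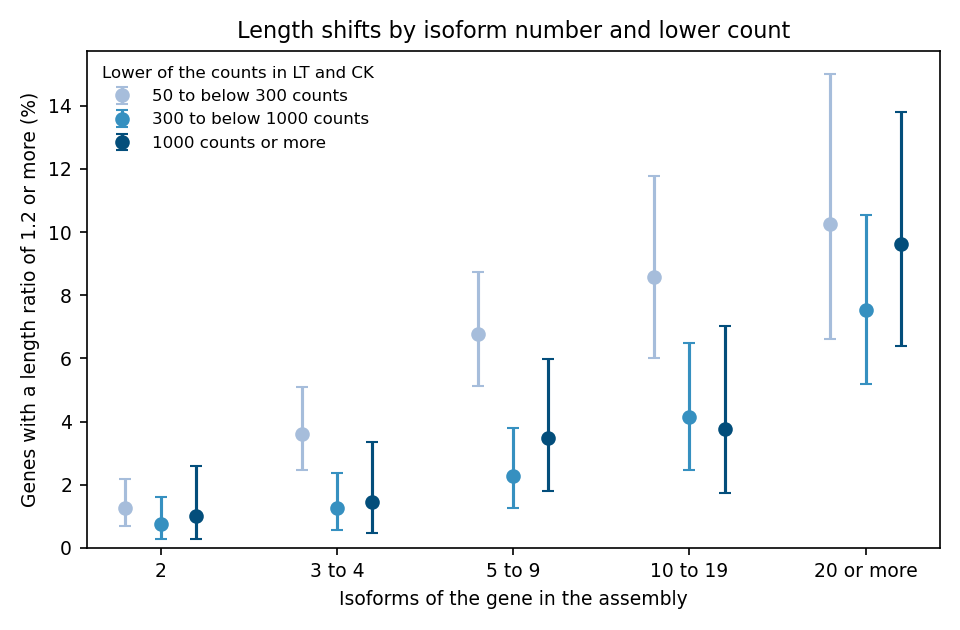
The percentage of genes with a length ratio of 1.2 or more, among the 7863 genes within 2-fold in normalised count, is shown by number of isoforms, with 1 colour for each class of the lower count; bars are exact 95% binomial intervals. All 3 colours are lowest at 2 isoforms (0.747% to 1.27%) and highest at 20 or more (7.54% to 10.3%).

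The shifts were spread over genes of most lengths. Averaged over LT and CK, the members had a median length of 1650 bases (469.8 to 6749), close to the 1553 bases of the 7863 genes. Of the 190 genes with a mean below 500 bases, 2 (1.05%) were members, against 2.28% from 500 to below 1000 bases and 3.31% to 4.72% in the 4 classes above. Between 500 and 1000 bases 22 members were longer in LT and 12 in CK, and between 1000 and 1500 bases 34 were longer in LT and 54 in CK. In the other classes the directions differed by at most 4 genes. The directions of all genes in each class were not counted, so no tie between length and direction is read from this. No members shared an assembly component, the part of the gene number before the first point. How often other genes share one was not counted, so nothing is read from this.

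The 23 members with 2 isoforms are the simplest to read, because their mean length can change only through the balance of that pair. Of these, 10 were longer in LT and 13 in CK, and their median ratio was 1.24. Their length differences ran from 108.1 to 858.5 bases. Of the 23, 4 had at least 1000 counts in both libraries. The first averaged 2325 bases in LT and 2964 in CK (1858 and 1588 counts). The second averaged 2504 and 3200 bases (1998 and 1886 counts), and the third 1211 and 1598 bases (1983 and 1726 counts). These 3 genes were longer in CK. The fourth was longer in LT, with 3466 and 2810 bases (1810 and 2455 counts).

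A mean length that is a whole number to 2 decimals is what a gene gives when transcripts of a single length make up all of its measured level. Of the 289 members, 20 (6.92%) had such a length in at least 1 library, close to the 6.09% of the 7863 genes. In 19 of them it was whole in 1 library alone, and in 15 of these 19 (78.9%) it was the greater of both lengths, against 225 of 341 (66.0%) over the 7863 genes. The remaining member, chosen after its values were seen, had whole numbers in both libraries that differed, 2055 bases in LT and 2959 bases in CK. It has 3 isoforms and 84 and 65 counts, and its lengths are those of a gene measured as 1 transcript length in LT and another in CK, though a mixture that happens to give a whole number cannot be told apart. Over the 7863 genes this was the case for 4 genes, while 134 had the same whole number in both.

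Among the 2-isoform members, 6 had a whole-number length in 1 library, and in each it was the greater length. It is taken here as the length of the longer isoform, though a mixture that happens to give a whole number cannot be told apart. The other isoform was taken to be no shorter than 201 bases, the shortest gene-level length in the assembly, since isoform lengths were not used. Under these assumptions, and with the weighting by transcripts taken above, lower limits follow for the shorter isoform in the other library. It made up at least 20% of the transcripts there for the member with the lowest limit. For the member with the highest limit it was at least 35.0%. This member stood at 1096 bases in CK and 782 in LT, from 135 and 88 counts. Read in this way, in 4 of the 6 the short isoform was measured in LT and not in CK. In the other 2 it was measured in CK and not in LT, both to the precision of the deposited lengths. Their counts were low, from 50 to 242.

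A length shift separates the count of a gene from its level per length. FPKM is the count divided by effective length and library total, whereas the count fold uses TMM library sizes. The differences below therefore follow by arithmetic from the lengths, from these unlike scalings and from the larger gap between length and effective length in LT. They are given as a description. In the members longer in LT, the median log2 count fold was 0.03, or -0.05 with upper-quartile scaling, and the median log2 fold of FPKM + 0.1 was -0.24. In those longer in CK, they were -0.26 and 0.24. Over the 7863 genes, whose median length ratio was 1.01, the medians were -0.03 and 0.06, so the lengths do not make up the whole difference. The count was higher in LT for 72 of the 136 members longer in LT and for 45 of the 153 longer in CK, while FPKM was higher in LT for 44 and 102. Over the 7863 genes the count was higher in LT for 47.5% and FPKM for 55.0%. Without scaling, 69 of the members then longer in CK had a higher count in LT, in place of 45.

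The direction of the difference turned with the measure in many members. Count fold and FPKM fold had opposite signs in 86 of the 289 members (29.8%), against 9.26% of the 7863 genes. FPKM was at least 2-fold apart in 32 members, against 1.89% of the 7863 genes. It was at least 2-fold higher in LT in 21 (against 1.70%), all of them longer in CK. It was at least 2-fold lower in LT in 11 (against 0.191%), all of them longer in LT. Because the rule holds the count within 2-fold, these directions are fixed by the choice of members. The unlike scalings of count and FPKM raise the FPKM fold of LT over CK and enter all of these numbers.

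The greatest FPKM fold was that of a gene with 3 isoforms, with 1013 and 499 counts and lengths of 1876 bases in LT and 3142 bases in CK. Its FPKM was 30.3 in LT and 9.48 in CK, a log2 fold of 1.67, against 0.82 for the count. The greatest drop was that of a gene with 2 isoforms, with 74 and 117 counts and lengths of 1812 and 1169 bases. Its FPKM was 2.30 in LT and 6.28 in CK, a log2 fold of -1.41, against -0.86 for the count. Both genes, chosen as the extremes after their values were seen, show the count and the level per length differing in the same direction by unequal amounts.

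**Figure D4:**
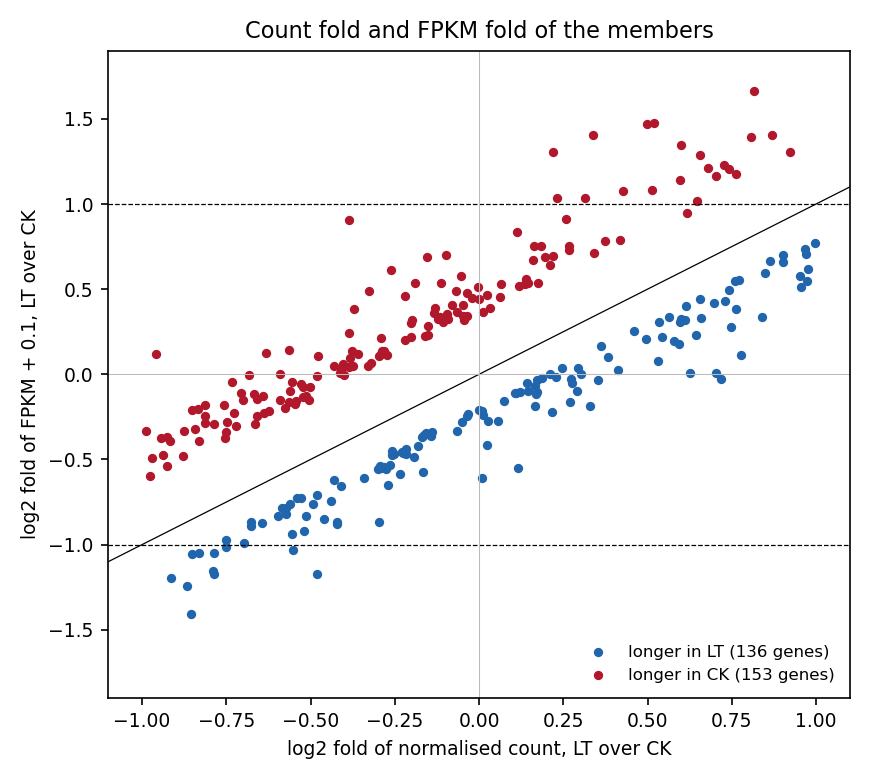
Each point is 1 of the 289 members, with the log2 fold of the normalised count on the horizontal and that of FPKM + 0.1 on the vertical axis, LT over CK in both; the solid line marks equal folds and the dashed lines a 2-fold difference in FPKM. Members longer in CK lie above the line and members longer in LT below it, and 21 and 11 of them pass the upper and the lower dashed line.

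Genes with a length shift and a 2-fold count difference were counted for comparison. The rule uses both values, and a count is not corrected for length, so a greater mean length can by itself raise it. The shares are therefore a description, and a link between isoform length and transcript level was not tested. Of the 9590 genes, 386 (4.03%) had a length ratio of at least 1.2, and 97 of those were at or past 2-fold in normalised count. These 97 made up 25.1% of the 386, against 17.7% of the 9204 genes without a shift and 18.0% of all 9590. The share was also greater among length-shifted genes in each of the 5 isoform classes, for example 32.4% against 21.8% with 2 isoforms and 17.5% against 11.9% with 20 or more. By lower count it was 27.9% against 21.4% below 300 counts, 21.2% against 14.5% from 300 to below 1000, and 22.2% against 15.5% from 1000. Of the 97, 60 were longer in LT, and 48 of these had a higher count in LT. The other 37 were longer in CK, and 21 of these had a higher count in LT. The direction of the count among genes past 2-fold without a shift was not counted, so nothing is read from these directions.

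Reads that fit sequences of several genes can leave a fractional expected count for a gene. Such a count was held in LT by 137 of the 289 members (47.4%) and by 52.1% of the 9590 genes, and in CK by 92 members (31.8%) and by 41.2% of the 9590. The members thus held fractional counts less often than the wider set in both libraries, as a description without a test and not matched on abundance. Reads shared only among isoforms of the same gene need not leave a fraction in the count of that gene. These shares therefore do not measure how surely reads were assigned to isoforms, which was not tested. The length exceeded the effective length of the members by 100.1 bases in LT and by 87.3 in CK, both nearly constant over the members, so that effective lengths are lowered more in LT.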

How the data were processed

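Per the file headers, the authors deposited an expected count, FPKM, TPM, length and effective length for each assembled gene. The deposited expected count is an estimate of reads and need not be whole. The deposited FPKM is per effective length and library total, and the deposited TPM adds up to an equal sum in both libraries. Poly-A RNA was selected with oligo-dT beads and prepared with a NEBNext Ultra kit, per the labels' protocols. The names of the assembler, aligner and quantifier were not given in the sources used here. A genome or annotation was not used.

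Here, expected counts were rounded to whole numbers, and LT and CK were joined by gene number, with identical isoform lists. Counts were scaled by trimmed-mean (TMM) library sizes, recomputed in edgeR 4.0.16 (R 4.3.3), and 1 count was added before the fold. The members and lists were chosen with earlier results of these data known. With 1 library per condition no test was run. Count folds have exact conditional binomial 95% intervals and shares exact Clopper-Pearson intervals; both cover counting error only, since reads were not collapsed by molecular identifiers. FPKM folds have 0.1 added, which understates differences of low genes. The rule for genes given by number was the 2 greatest ratios in each direction with at least 200 counts in both libraries; others are described by rank without a number: the third, the fourth and the fifth ratios, the 5 most abundant in each direction, and the genes beside each limit. The member call was run on simulated counts with lengths set in advance. This checks only that the rule is applied as stated, and not the error of the lengths or the rate of false calls. Alternatives covered DESeq2 1.42.0 size factors, 4 other scalings, other limits, effective length, and FPKM or TPM in place of counts. Python 3.11.15 with numpy 2.4.6, pandas 2.3.3, scipy 1.17.1 and matplotlib 3.10.9 was used for other steps.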

Additional observations from a re-analysis of the deposited data

How the results depend on the processing

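With 1 library per condition, none could be left out. Under the 5 scalings tried, recomputed TMM included, there were 281 to 289 members, 128 to 136 longer in LT and 146 to 155 longer in CK, with a median ratio of 1.27 or 1.28 and 32 or 33 genes at least 2-fold apart in FPKM. Without scaling, the median log2 count fold of the 9590 genes moved by 0.20, and the median of the members was 0.14 for those longer in LT and -0.09 for those longer in CK, of which 69 then had a higher count in LT. With the upper quartile these medians were -0.05 and -0.29, so the sign of the median count fold of members longer in LT turns with the scaling. With FPKM in place of the count, 279 genes qualified, 257 of them among the 289, and with TPM 281 and 258; 0 and 2 of these were then at least 2-fold apart in FPKM, by construction. Effective length gave 340 genes, 144 longer in LT and 196 longer in CK, which include all 289; the greater excess of CK follows from the larger offset in LT. Counts outside 1.5 times the reported ones came from testing other genes or from another limit, in the order all members, longer in LT, longer in CK, and at least 2-fold apart in FPKM. A minimum of 200 counts gave 163, 70, 93 and 19, and of 500 counts 92, 42, 50 and 13; a minimum of 20 gave 50 genes apart in FPKM. A length limit of 1.1 gave 886, 450, 436 and 50, so that genes longer in LT were then more numerous; 1.3 gave 117, 46 and 71; and 1.5 gave 27, 9, 18 and 10. The median ratio was 1.16, 1.39 and 1.635 under these length limits. A fold limit of 1.5 gave 189, 89, 100 and 10, and one of 4 gave 76 genes apart in FPKM. With exactly 2 isoforms there were 23, 10, 13 and 4, and with 10 or more 141, 68, 73 and 10. With a minimum of 20 counts, 202 genes were longer in LT and 201 in CK, so the small excess of genes longer in CK depends on the limits. The 4 genes given by number had effective-length ratios of 1.57 to 2.35, past the limit in the same direction.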
